A study of Arabidopsis thaliana with 57 samples.

Results

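Of the study's 57 libraries, 12 were made from young Arabidopsis thaliana flowers labelled with no transgene cassette and with the Wt phenotype, and they are described here as 4 genotypes with 3 libraries each. The genotypes were Col, the Columbia background, and the mutants suvh1-2, hdp1-1 and hdp2-1. The 12 libraries are those labelled batch B, no cassette in the genotype and Wt flowers, a choice made with earlier results of these data known. All other batch B libraries are labelled with the ARE//AGe cassette, and "without a cassette" stands here for what the labels say. The labels give no plant age at harvest and no account of how the mutant alleles were made or whether they were brought into Col. The extraction protocol describes each replicate as RNA pooled from 5 to 10 lines of one flower phenotype, without separating plants that carried a cassette from plants that did not, so a library is a pool and the spread between replicates is a spread between pools. Growth under long days and stranded total RNA libraries after removal of ribosomal RNA were shared by all groups.

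The counted locus is AGAMOUS (AG, locus AT4G18960). AG encodes a MADS-domain transcription factor needed for stamen and carpel identity and for ending growth of the floral meristem. Much of its control lies in its second intron, which binds activators such as LEAFY and WUSCHEL and is held silent elsewhere by Polycomb proteins. Noncoding RNAs have been described from this intron. SUVH1 reads DNA methylation, and in a complex with DNAJ proteins it promotes transcription of genes that lie near methylated DNA. HDP1 and HDP2 derive from a Harbinger-type transposase and belong to the complex that brings the demethylase ROS1 to its targets, which keeps them from being silenced. The comparisons therefore ask how much RNA the AG locus gives, on each strand, when these anti-silencing factors are mutated and the labels name no cassette.

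Both counted regions are on chromosome 4 in the coordinates of TAIR10. The enhancer region, AGe, is chr4:10384147-10387145 (2999 bp, 28.6% GC). It lies wholly inside AG and coincides with intron 2 of the transcript NM_118013.2, and its first and last bases are that intron's splice sites, in capitals here.
AGe first 60 bases, chr4:10384147-10384206, plus strand: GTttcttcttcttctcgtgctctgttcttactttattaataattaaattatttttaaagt
AGe last 60 bases, chr4:10387086-10387145, plus strand: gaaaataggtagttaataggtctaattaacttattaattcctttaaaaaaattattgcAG
The other 3 annotated AG transcripts have a 90 bp exon inside the region, at chr4:10386982-10387071. It is shown in capitals with 15 intron bases on each side, because it means that a sense read over AGe can come from spliced as well as from unspliced AG RNA.
AGe exon, chr4:10386967-10387086, plus strand: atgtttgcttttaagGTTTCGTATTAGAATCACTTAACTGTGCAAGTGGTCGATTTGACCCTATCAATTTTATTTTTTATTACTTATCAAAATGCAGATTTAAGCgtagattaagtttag

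A search on both strands placed short motifs in the 3′ part of the intron. The motifs were CCAATG, the core bound by LEAFY in this enhancer, TTAATGG, the core bound by WUSCHEL, CCAATCA, and the CArG box of MADS-domain proteins. AGe held 4 matches to CCAATG, 1 to TTAATGG, 2 to CCAATCA and 1 to the CArG box. The 240 bases that hold 6 of these 8 matches are shown with the matches in capitals.
AGe motif stretch, chr4:10386527-10386766, plus strand: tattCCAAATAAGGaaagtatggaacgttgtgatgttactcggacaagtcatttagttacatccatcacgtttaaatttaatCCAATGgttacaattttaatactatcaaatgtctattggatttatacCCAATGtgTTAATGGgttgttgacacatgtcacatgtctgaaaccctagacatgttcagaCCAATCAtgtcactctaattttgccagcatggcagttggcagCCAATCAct
Such short words are common. Of 39570 genome windows of the same length, 73.7% held at least 1 match to CCAATG, 40.7% to TTAATGG, 40.5% to CCAATCA and 17.4% to the CArG box. How many windows held as many matches as AGe was not counted.

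The second region, named AG promoter (AGp) or M2 in the header of the deposited table, is chr4:10380701-10382800 (2100 bp, 28.6% GC). It is intergenic, with 55 bases between its end and the annotated start of AG. The last 200 bases before that gap are shown because they are the part nearest to the AG start, and none of the 4 motifs was found in them. Elsewhere AGp held 1 match to TTAATGG and 1 to the CArG box, and of 56544 genome windows of its length 30.7% and 12.5% held these.
AGp last 200 bases, chr4:10382601-10382800, plus strand: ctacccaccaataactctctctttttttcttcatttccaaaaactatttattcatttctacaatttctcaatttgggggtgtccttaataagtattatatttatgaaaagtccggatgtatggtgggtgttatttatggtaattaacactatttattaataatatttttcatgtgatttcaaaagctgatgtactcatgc
The header does not say which libraries were counted over AGp and which over M2, so a promoter read here means a read of that column. AG is on the plus strand, and sense and antisense are named relative to it. The nearest annotated gene before AGp, AT4G18950, lies on the same strand and ends outside the region.

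**Figure D1:**
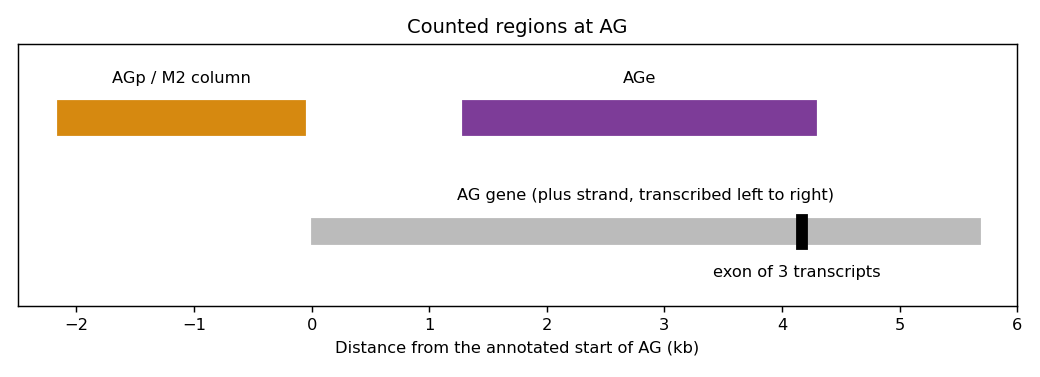
Map of the counted regions. The horizontal axis is the distance from the annotated start of AG in kb, with AGp to the left of the start and AGe inside the gene; the black mark is the 90 bp exon found in 3 of the 4 annotated transcripts.

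Uniquely mapped reads were 22250418 to 56584186 per library. Levels are in RPM, which are reads for every 1000000 uniquely mapped reads of the library, given as mean ± SD with n = 3 unless stated. At these depths a library held 70 to 419 AGe sense reads, 1 to 30 AGe antisense reads and 0 to 17 promoter reads of both strands. Reads mapped to more than 1 place made up 7.94% to 17.8% of mapped reads. They averaged 9.03% ± 1.61 in Col, 13.6% ± 0.714 in suvh1-2, 12.2% ± 1.72 in hdp1-1 and 13.7% ± 3.69 in hdp2-1. The table counts no gene besides AG, so neither the mutated genes nor markers of floral cell types could be used to check the labels. The 3 suvh1-2 libraries stood apart from the other 9 in the promoter column, where their levels were near those of mutants labelled with ARE//AGe. The comparisons of hdp1-1 and hdp2-1 with Col set none of these libraries against another. Tests are edgeR's quasi-likelihood tests, their p-values adjusted by Benjamini-Hochberg over the 4 features (2 regions by 2 strands) in a comparison, and a feature is called at an adjusted p under 0.05. The 3 comparisons of a mutant with Col share the same Col libraries.

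AG sense RNA over the enhancer was highest in Col, lower in suvh1-2 and lowest in hdp1-1 and hdp2-1. The 3 Col libraries had 7.21, 7.40 and 8.996 RPM. The suvh1-2 libraries had 5.71, 5.17 and 6.42 RPM. The hdp1-1 libraries had 4.15, 3.83 and 3.74 RPM, and the hdp2-1 libraries had 2.55, 4.23 and 3.62 RPM. All Col libraries lay above all suvh1-2 libraries, and all suvh1-2 libraries lay above all hdp1-1 and hdp2-1 libraries. Only hdp1-1 and hdp2-1 overlapped each other. In whole flowers, fewer cells that transcribe AG and less AG RNA per cell cannot be told apart.

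**Figure D2:**
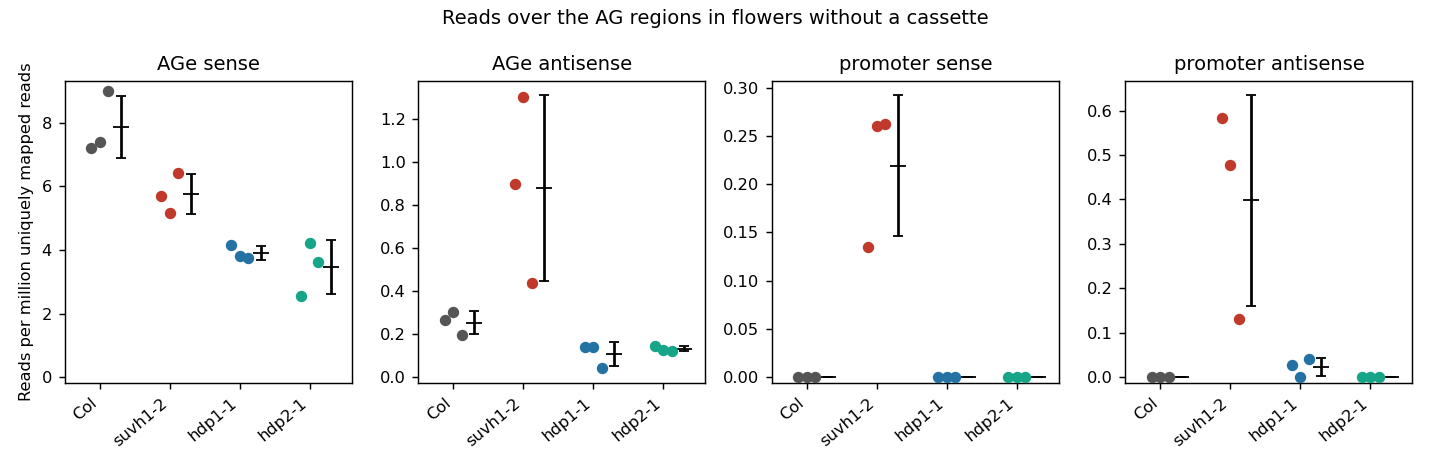
Level in RPM in each of the 12 libraries, one panel for each region and strand, with separate vertical scales. Coloured points are libraries, and the black bar beside each genotype is the mean with its SD; AGe sense reads fall from Col (7.21 to 8.996 RPM) to hdp2-1 (2.55 to 4.23 RPM), while the other 3 features are highest in suvh1-2.

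In hdp1-1, AGe sense reads averaged 3.90 ± 0.218 RPM against 7.87 ± 0.980 RPM in Col, a 2.01-fold lower level (log2 -1.01 ± 0.20 SE, 95% interval -1.41 to -0.61, adjusted p = 3.18e-05). It was the 1 feature called of 4 (25.0%). In hdp2-1 the level was 3.47 ± 0.850 RPM, 2.27-fold lower than in Col (log2 -1.19 ± 0.20 SE, interval -1.59 to -0.78, adjusted p = 2.30e-06), again the 1 feature called of 4 (25.0%). Both differences are larger than the spread between replicates. The spread was uneven: the SD of hdp1-1 was 0.591 times and that of hdp2-1 was 2.30 times the SD that counting alone would give at these depths. The share of multiply mapped reads was higher in these mutants than in Col on average, and scaling by all mapped reads instead gave differences of log2 -1.06 and -1.26, both still called. The part of the multiply mapped reads in the result was not tested further.

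The hdp1-1 and hdp2-1 libraries were also pooled, as mutants of a single complex. Their 6 libraries averaged 3.69 ± 0.604 RPM (n = 6) of AGe sense reads. The level was 2.14-fold below Col (log2 -1.10 ± 0.17 SE, interval -1.43 to -0.76, adjusted p = 1.98e-07), and all 6 libraries lay below the lowest Col library. AGe sense was the 1 feature of 4 called (25.0%). In the promoter column the 6 libraries had 0 sense and 2 antisense reads, against 0 of either in Col. The exact permutation test of 6 libraries against 3 gave p = 0.0238 (two-sided), the smallest that its 84 splits allow, and 0.117 after adjustment over the 7 comparisons. Tests of 3 libraries against 3 have 20 splits and cannot go below 0.1.

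AGe antisense reads were few in Col and in both hdp mutants, and no difference between them was called. Col had 6, 17 and 6 reads, which are 0.265, 0.300 and 0.193 RPM. The hdp1-1 libraries had 5, 4 and 1 reads (0.140, 0.140 and 0.0406 RPM). The hdp2-1 libraries had 4, 3 and 3 reads (0.146, 0.127 and 0.122 RPM). Every hdp library lay below every Col library, and the differences were log2 -1.19 ± 0.60 SE in hdp1-1 (interval -2.40 to 0.03, adjusted p = 0.111) and log2 -0.96 ± 0.61 SE in hdp2-1 (interval -2.18 to 0.27, adjusted p = 0.247). With both mutants together the difference was log2 -1.07 ± 0.50 SE (interval -2.08 to -0.06, adjusted p = 0.0768). It was called with features under 10 reads left out of the adjustment (adjusted p = 0.0384), when the fit held the compared groups alone (0.0179) and with limma (0.0365). It was not called with DESeq2 (0.0505) or in any of the 9 fits that left out 1 library, where the adjusted p ranged from 0.062 to 0.365 and the highest came without Col replicate 2 (log2 -0.86). The exact permutation test gave p = 0.0238, or 0.117 adjusted over the 7 comparisons. This adjusted value could not have passed 0.05, because the other comparisons set 3 libraries against 3 and cannot go below 0.1.

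No difference in the strand balance of AGe was detected between the hdp mutants and Col. Antisense reads were 3.18% ± 0.951 of AGe reads in Col, 2.63% ± 1.35 in hdp1-1 and 3.86% ± 1.35 in hdp2-1. Over all 6 hdp libraries the share was 3.24% ± 1.38 (n = 6), 0.0588 percentage points above Col (exact permutation p = 0.929, two-sided, adjusted p = 0.929). Summed over libraries, 20 of 628 hdp reads were antisense, or 3.18% (exact 95% binomial interval 1.96% to 4.88%), against 29 of 890 in Col, or 3.26% (2.19% to 4.65%). A share within a library does not depend on the library size.

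**Figure D3:**
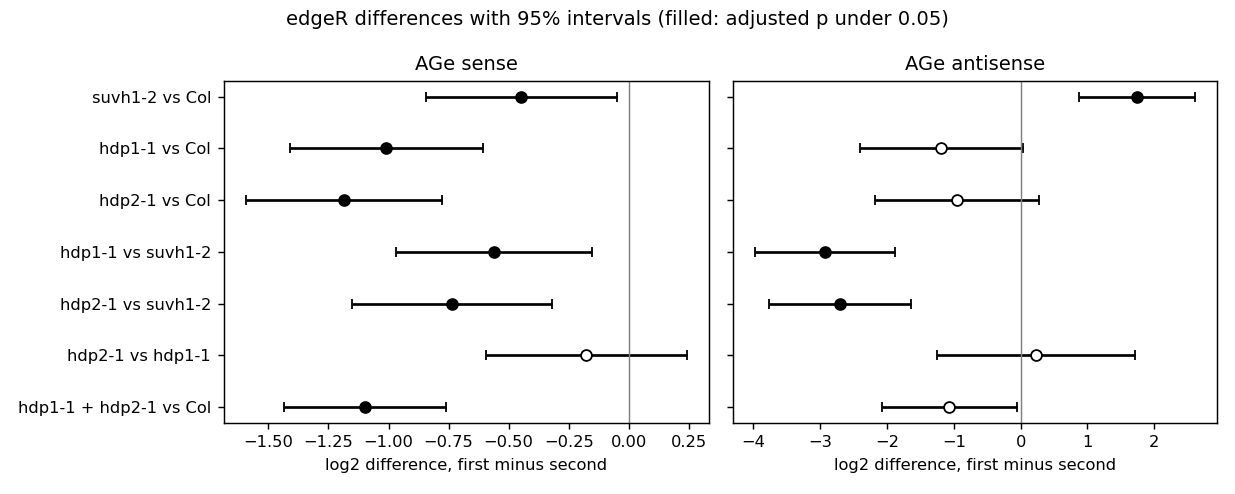
Log2 differences in AGe sense reads (left) and AGe antisense reads (right) for the 7 comparisons, with 95% intervals from edgeR. Each difference is the first group minus the second and filled points were called; sense reads were lower in all mutants than in Col, antisense reads were higher in suvh1-2, and the hdp points against Col for antisense reads are open.

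The suvh1-2 flowers differed from Col in all 4 features (4 of 4 called, 100%), with fewer sense reads over the enhancer and more reads of the other 3 kinds. AGe sense reads were 5.77 ± 0.628 RPM, 1.36-fold below Col (log2 -0.45 ± 0.20 SE, interval -0.85 to -0.05, adjusted p = 0.0278). This is the smallest called difference, and it depended on single libraries. Leaving out Col replicate 3 gave log2 -0.34 (adjusted p = 0.124), leaving out suvh1-2 replicate 1 gave log2 -0.44 (adjusted p = 0.0571), and leaving out suvh1-2 replicate 2 gave log2 -0.38 (adjusted p = 0.0992), none of them called. Restricting the fit to batch B gave an adjusted p of 0.0598, restricting it to the compared groups gave 0.106, and adjusting over all 28 tests gave 0.0519.

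AGe antisense reads in suvh1-2 numbered 20, 30 and 10, against 6, 17 and 6 in the Col libraries. The levels were 0.899, 1.30 and 0.437 RPM, and the lowest of them was above the highest Col library, at 0.300 RPM. The mean of 0.880 ± 0.433 RPM was 3.35-fold above Col (log2 1.74 ± 0.43 SE, interval 0.87 to 2.61, adjusted p = 0.000428). The libraries differed among themselves by more than counting error, with an SD 2.20 times the counting SD. Leaving out any 1 library of either group left the difference between log2 1.34 and 2.07, with a largest adjusted p of 0.0121.

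Within suvh1-2, the library with the most antisense reads had the fewest sense reads and the library with the fewest antisense reads had the most sense reads. The sum of both strands was 6.61, 6.47 and 6.86 RPM, or 6.65 ± 0.196 RPM, an SD 0.363 times the counting SD. An SD from 3 libraries is imprecise, and a relation between the strands was not tested. Col had 8.12 ± 0.931 RPM on both strands together. The antisense share was 13.6%, 20.1% and 6.37% in the suvh1-2 libraries, 13.4% ± 6.89 on average. The highest Col library was at 3.90%, so the groups did not overlap (difference 10.2 percentage points, exact permutation p = 0.1, two-sided, the smallest possible; adjusted p = 0.233). In replicate 3 the exact 95% binomial interval of 3.10% to 11.4% overlapped the intervals of the Col libraries.

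**Figure D4:**
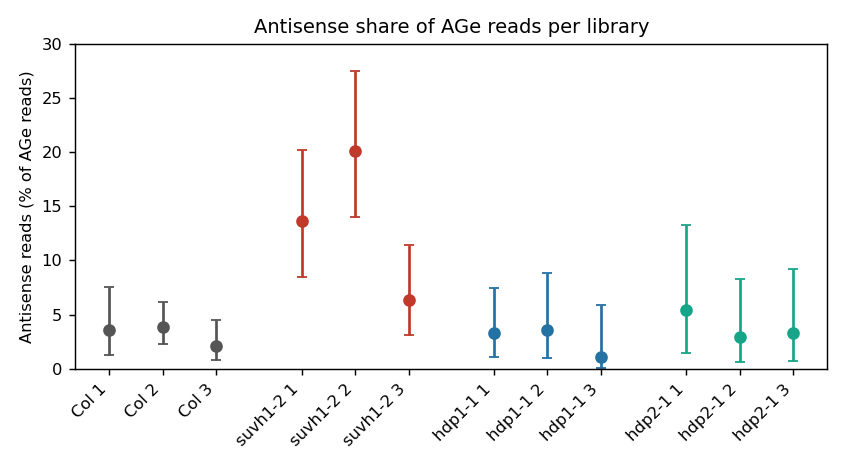
Antisense reads as a percent of all AGe reads in each library, with exact 95% binomial intervals that cover counting error only. 2 of the suvh1-2 libraries, at 13.6% and 20.1%, lie above all others, and replicate 3, at 6.37%, has an interval that overlaps those of the other genotypes. The interval of suvh1-2 replicate 1 (8.51% to 20.2%) also overlaps some hdp1-1 and hdp2-1 intervals, such as that of hdp2-1 replicate 1 (1.49% to 13.3%).

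Promoter reads were found in all 3 suvh1-2 libraries and were nearly absent from the other 9. The suvh1-2 libraries had 3, 6 and 6 sense reads, which are 0.135, 0.261 and 0.262 RPM. They had 13, 11 and 3 antisense reads, which are 0.584, 0.478 and 0.131 RPM. Col had no promoter read in 3 libraries, so with a limit of 3 reads in the group a level of up to 0.0272 RPM is allowed. hdp2-1 also had none (up to 0.0397 RPM), and hdp1-1 had 2 antisense reads, 1 each in replicates 1 and 3, and no sense read (antisense against Col, adjusted p = 0.149). With Col at that limit, the mean suvh1-2 level was 8.05-fold higher for sense reads and 14.6-fold higher for antisense reads (adjusted p = 0.00307 and 1.91e-06). These bounds allow for counting error in Col but not in the suvh1-2 reads. The bounds fell when Col replicate 2, which has the most reads, was left out, to 3.92-fold and 7.11-fold. If the column was counted over different regions in suvh1-2 and Col, these folds do not compare like with like.

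Both strands of the promoter column were represented in suvh1-2, 27 antisense and 15 sense reads in all. The antisense share was 64.3% (exact 95% binomial interval 48.0% to 78.4%), so an even split is within counting error. The strands were unevenly divided between libraries: antisense reads were the majority in replicates 1 and 2 and the minority in replicate 3. That library also had the fewest AGe antisense reads. Per kb of region, suvh1-2 promoter reads of both strands were 0.294 ± 0.0924 RPM per kb, AGe antisense reads were 0.293 ± 0.145 RPM per kb, and AGe sense reads were 1.92 ± 0.209 RPM per kb. In Col the AGe antisense level was 0.0844 ± 0.0182 RPM per kb.

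The same promoter reads were set beside those of the batch B flowers with a cassette. With both strands added, the suvh1-2 libraries had 0.719, 0.738 and 0.393 RPM. The 22 batch B libraries of mutants with ARE//AGe include flowers labelled rMf and sMf, which are phenotypes other than Wt. These 22 had 0.443 to 1.31 RPM, with a median of 0.723. Those with Wt flowers alone ranged from 0.443 to 1.02 RPM. Of the 3 suvh1-2 libraries, 2 lay inside both ranges and replicate 3 lay below both. Col with ARE//AGe had at most 0.123 RPM, and the 9 other libraries without a cassette at most 0.0406 RPM. Wt flowers of suvh1-2 labelled with ARE//AGe (n = 2) were also compared with suvh1-2 labelled without it. In this comparison 0 of 4 features were called by edgeR, 0 before adjustment. The log2 intervals were -1.76 to 1.81 for promoter sense reads and -1.25 to 0.82 for promoter antisense reads. For AGe sense reads the difference was log2 0.27 (interval -0.17 to 0.71). For AGe antisense reads it was log2 -0.67 (interval -1.52 to 0.19), the lower level being in the flowers labelled with ARE//AGe. The table has no count that would show whether a cassette was present, and its part in the suvh1-2 values was not tested.

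**Figure D5:**
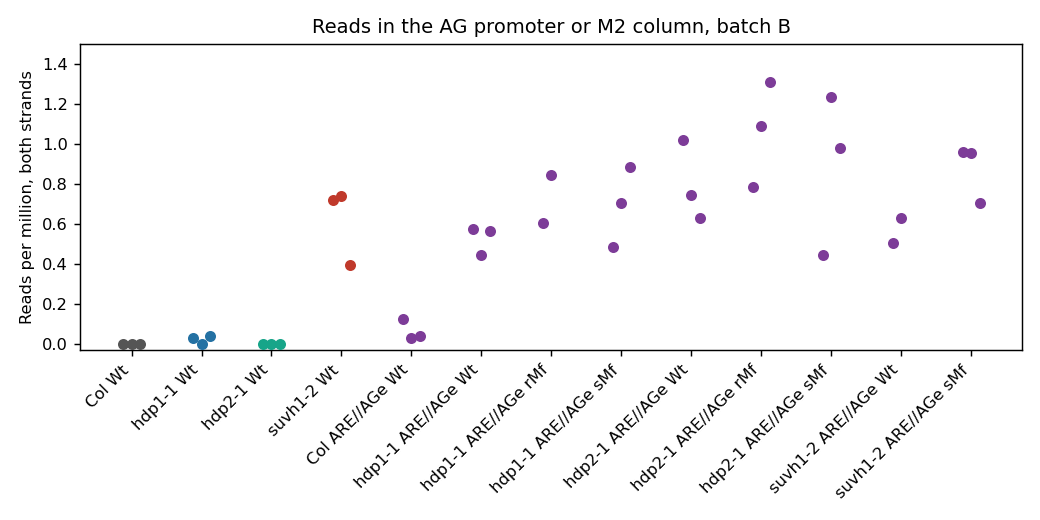
Reads of both strands in the AG promoter or M2 column, in RPM, for each batch B library. Groups with the ARE//AGe cassette are purple and include rMf and sMf flowers as well as Wt flowers. The suvh1-2 libraries without a cassette (0.393 to 0.738 RPM) sit near the mutants with the cassette, and Col, hdp1-1 and hdp2-1 without it are at or near 0.

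The mutants were also compared with each other. Against suvh1-2, hdp1-1 was lower in all 4 features (4 of 4 called, 100%), and so was hdp2-1 (4 of 4, 100%). AGe sense reads were 1.47-fold lower in hdp1-1 (log2 -0.56 ± 0.20 SE, interval -0.97 to -0.15, adjusted p = 0.00832) and 1.67-fold lower in hdp2-1 (log2 -0.74 ± 0.21 SE, interval -1.15 to -0.32, adjusted p = 0.00115). For hdp2-1 this call was lost when the fit was restricted to hdp2-1 and suvh1-2 (adjusted p = 0.0511). AGe antisense reads were 7.62-fold lower in hdp1-1 (log2 -2.93 ± 0.52 SE, adjusted p = 5.02e-06) and 6.49-fold lower in hdp2-1 (log2 -2.70 ± 0.53 SE, adjusted p = 1.25e-05).

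Promoter reads separated suvh1-2 from both hdp mutants as they did from Col. With each hdp mutant at the limit of 3 reads in its group, sense levels were 6.49-fold lower in hdp1-1 and 5.53-fold lower in hdp2-1 (adjusted p = 0.00542 and 0.00614). These bounds again leave out the counting error of the suvh1-2 reads. Leaving out replicate 1 of the hdp mutant lowered these bounds to 3.88-fold for hdp1-1 and 3.52-fold for hdp2-1. On the same terms, the antisense level was 10.03-fold lower in hdp2-1 (adjusted p = 1.25e-05), or 6.39-fold without hdp2-1 replicate 1. In hdp1-1, with 2 reads against 27, the rate in suvh1-2 was 17.6 times higher, with an exact 95% counting interval of 4.42 to 153 (adjusted p = 4.90e-05).

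Between hdp2-1 and hdp1-1 no feature was called (0 of 4, 0%), 0 passed 0.05 without adjustment, and the counts called by DESeq2 and by limma were also 0. The AGe sense difference was log2 -0.18 ± 0.21 SE (interval -0.59 to 0.24, adjusted p = 0.796), so a level in hdp2-1 1.5-fold below hdp1-1 is at the edge of what these libraries allow. The AGe antisense difference, from 10 reads in each mutant, was log2 0.23 ± 0.74 SE (interval -1.26 to 1.72), which leaves room for more than a 2-fold difference either way. Promoter sense reads were 0 in both mutants, and promoter antisense reads were 0 in hdp2-1 and 2 in hdp1-1 (adjusted p = 0.65).

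Among the 13 batch B groups, hdp2-1 and hdp1-1 without a cassette had the lowest mean AGe sense levels, and suvh1-2 without one was the fourth lowest, next to Col with ARE//AGe (5.31 ± 0.493 RPM). The hdp1-1 and hdp2-1 groups also had the lowest mean AGe antisense levels, at 0.107 ± 0.0575 and 0.132 ± 0.0125 RPM, followed by Col at 0.253 ± 0.0545 RPM. In suvh1-2 the AGe antisense mean, 0.880 ± 0.433 RPM, was the sixth of 13 from the lowest. The 13 groups mix Wt, rMf and sMf flowers. The label of the cassette itself names AGe, and the counts do not show whether AGe reads of those groups come from the AG locus alone. This order is a description, and neighbours in it were not tested except where a comparison is given above.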

How the data were processed

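Strand-specific total RNA of young flowers was analysed in 12 libraries. Per the labels' protocols, RNA was treated with DNase, depleted of ribosomal RNA, made into TruSeq stranded libraries and sequenced on a HiSeq X-Ten. The submitters' processing notes name HISAT2, HTSeq 0.13.5 and TAIR10, without roles or settings. The authors deposited raw read counts per strand and region, library read numbers, percent mapped, and RPM values. The deposited RPM equalled count / uniquely mapped reads × 1000000 in all 57 libraries. The deposited percent mapped was not used in any test. Raw counts were fitted with edgeR 4.0.16 (R 4.3.3), uniquely mapped reads as library size, a mean for each of 20 groups over all 57 libraries, 37 residual degrees of freedom and 1 common dispersion (0.0364, a coefficient of variation of 19.1%). The pooled comparison set the mean of the hdp1-1 and hdp2-1 group means against Col. Alternatives were DESeq2 1.42.0, limma 3.58.1 on log2(RPM + 0.1), other libraries in the fit, other library sizes and dispersions, a replicate block and each replicate left out. The fit was also run on counts simulated with its own dispersion, which does not test whether 1 common dispersion holds for these libraries. Intervals and limits from counts cover counting error only. Fold bounds set against such a limit leave out the counting error of the group with reads. All 4 features are named in each comparison. The members, comparisons and tests were chosen with earlier results of these data known. Sequences and annotation are from RefSeq TAIR10.1; AGe matches an annotated AG intron base for base in it. Same-numbered libraries are not tied to one another by the labels.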

Additional observations from a re-analysis of the deposited data

Results flagged for a closer look

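The 6 hdp1-1 and hdp2-1 libraries, taken as 1 group, were screened in 4 measures by Dixon's criterion, which by chance picks out about 1 group in 20 for each measure, and in 2 of them a library lay far from the rest. For AGe sense reads it was hdp2-1 replicate 1, at 2.55 RPM, with the other 5 libraries between 3.62 and 4.23 RPM. Without it the pooled difference from Col was log2 -1.01 in place of -1.10 and was still called. For AGe antisense reads it was hdp1-1 replicate 3, at 0.0406 RPM from 1 read, with the other 5 between 0.122 and 0.146 RPM. Without it the pooled antisense difference from Col was log2 -0.91 (edgeR, adjusted p = 0.158) in place of -1.07 (adjusted p = 0.0768), not called in either case.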

How the results depend on the processing

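Of 536 repeated values under the alternatives, over 35 results, 516 kept their side of the threshold and, where there was one, their direction. Promoter features with 3 or fewer reads in both groups were given no direction. The 516 include values that could not have crossed the threshold. Promoter features without a read in either group could not be called in any setting. Antisense shares of single genotypes were compared by permutation, which cannot pass the threshold with so few libraries. Shares from summed reads have no p-value. For these shares only the direction could change. The call of fewer AGe sense reads in suvh1-2 than in Col was lost in a fit of batch B (log2 -0.45), in a fit of the compared groups (log2 -0.45) and with adjustment over all 28 tests (log2 -0.45), and its range without each library in turn was log2 -0.53 to -0.34. Fewer AGe sense reads in hdp2-1 than in suvh1-2 were not called in a fit of those groups alone (log2 -0.74). AGe antisense reads in hdp1-1 against Col became called in a fit of those groups (log2 -1.20) and with limma (log2 -0.80). Those of both hdp mutants against Col became called in a fit of those groups (log2 -1.08), with limma (log2 -0.70) and with features under 10 reads left out (log2 -1.07). The cause was not tested. Leaving out single libraries turned the sign of differences that were never called: between hdp2-1 and hdp1-1, AGe antisense ranged from log2 -0.084 to 0.48 (-0.084 without hdp1-1 replicate 3) and AGe sense from log2 -0.34 to 0.0060 (0.0060 without hdp2-1 replicate 1). The antisense share minus Col ranged from -1.10 to 0.219 percentage points for hdp1-1, from -0.0981 to 1.15 for hdp2-1, and from -0.481 to 0.492 for both together, with -0.374 without hdp2-1 replicate 1 and -0.000452 without hdp1-1 replicate 2. Taken from summed reads in place of the mean over libraries, the last of these differences also turned, from 0.0588 to -0.0737 percentage points. With the replicate number as a block, 0 of 28 calls changed (suvh1-2 against Col, AGe sense, log2 -0.45; hdp1-1, -1.003; hdp2-1, -1.19). Deviations of same-numbered libraries correlated over 0.1 in 15 of 18 pairs, from -0.882 to 0.979 over only 4 features. Depth limits the antisense and promoter features, with 10 or fewer reads per group in hdp1-1 and hdp2-1.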
